A study of Mus musculus with 12 samples.

Results

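The 55 genes described here are X-linked mouse genes that could be read for their 2 alleles in reprogrammed cells but not, at the same depth, in the starting fibroblasts. Each has a single-base variant covered by at least 20 reads in LowK day 56, in MidK1 day 56 and in MidK2 day 36, and none at that coverage in either fibroblast library. They are 55 of 373 genes that carried such a variant in any of the 12 libraries. Of 231 genes measured in all 3 libraries named in the choice, 170 were also measured in fibroblasts. A further 8 genes were left out by name, of which 6 met the rest of the criteria, so 61 would have qualified. The members were selected on their coverage in those 5 libraries, so that they are read after reprogramming and not before is not a result.

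The libraries come from poly(A) RNA. MEF, mouse embryonic fibroblasts with no vector and no agent at day 0, are represented by 2 libraries. The other 10 come from MEF that received the vector SeVdp(fKOSMaB), a Sendai virus vector that carries reprogramming factors and replicates in the cytoplasm. LowK libraries had no agent and were taken on days 35, 52 and 56. MidK1 libraries of the same 3 days had 30 nM Shield1, a small molecule that stabilizes proteins fused to an engineered destabilizing domain. MidK2 libraries of days 18, 22, 29 and 36 also had 30 nM Shield1. Each reprogrammed course and day is 1 library, the strains, sex and parental origin of the alleles are not stated in the labels, and nothing says whether the cells were a clone or a mixed culture. The tests below therefore compare pairs of libraries, not conditions, and their intervals cover counting error only, since the reads carry no molecular identifiers and neighbouring sites share reads.

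In female mammals most genes on one X chromosome are silenced early in development, and the silent state is copied through cell division. When somatic cells are reprogrammed to pluripotency the silent X is reactivated, and its genes return to expression gene by gene over days. A transcribed variant that differs between the 2 X chromosomes shows this as reads from both alleles. Genes that fibroblasts hardly transcribe are a blind spot for such a reading at the start, since neither allele gives enough reads.

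Alleles are described by their shares of reads. The reference share is the percentage of reads at a site, or summed over sites, that do not carry the variant. The minor share is whichever of the variant and reference percentages is lower, so that 0% means that one allele gave every read and 50% that the alleles were equal, and a gene is called biallelic where the median minor share over its sites was at least 10%. Positions with only reference reads are not listed in the tables, and a site at which both X chromosomes carry the variant looks the same as a site read from one X. In bulk RNA, fewer cells that read the second allele and less RNA from it per cell cannot be told apart.

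The absence from fibroblasts is a matter of depth for many of the 55 genes. No single-base variant was listed in MEF at any coverage for 27 of them, while 28 were listed there at 10 to 19 reads. Just inside the limit were Brcc3 and Gm15032 at 19 reads and Mbtps2 and Ubl4a at 18, and just outside were Rps6ka3, Usp11, Zfp280c and Gm14820 at 20. In the libraries that chose the genes, 12 members rested on a single site in at least 1 library, 7 reached no more than 20 to 22 reads in one of them, and 26 other genes met the limit in exactly 2 of the 3. The shallow fibroblast sites of the members read almost only the variant allele. In MEF replicate 1, 20 members with 55 sites gave a reference share of 4.56% (95% Wilson interval 3.21 to 6.43) of 658 reads. In MEF replicate 2, 24 members with 80 sites gave 5.46% (4.22 to 7.04) of 1007 reads. At the listed sites both replicates sat near the variant allele, with intervals that overlap. Listing itself asked for variant reads, at least 5 and 10% in replicate 1 and 2 and 5% in replicate 2. Positions with reference reads only are absent, so these shares lean to the variant, under unlike limits in the 2 replicates.

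Summed coverage over sites was between 126581 and 254398 reads per reprogrammed library, of which the members held 13.5% to 17.7%. Their 1148 sites comprise 550 in coding sequence, 590 in untranslated exon parts, 5 in noncoding exons and 3 in introns. Of the 55 genes, 42 were measured in all 10 reprogrammed libraries. Genes of the fibroblast list, such as Flna, Msn and Bgn, held 55.4% and 51.6% of the coverage in the 2 MEF libraries and 5.28% to 7.62% in the reprogrammed ones. None of the 10 blood markers was measured in any library. Of 6 trophoblast markers, none was measured in MEF and Esx1 alone in each reprogrammed library. Of 17 neuronal genes, 2 were measured in each MEF library and 3 to 6 in each reprogrammed library, and of 38 pluripotency and germline genes 3 and 4 to 6. Epithelial markers reached 1 of 7 in MEF and at most 3 of 7 after reprogramming. The part of other cell types in the results was not tested.

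Among the members, 10 share at least 10% of their transcript sequence with another gene, so that reads could be placed on either and their values are uncertain in that respect. Of the 31-base words in the annotated transcripts of Gm21887, 62.0% also occur in Gm47283. For Pin4 56.1% occur in Gm6851, for Timm8a1 41.8% in Gm9797, and for Sms 17.8% in Sms-ps. Bex4, Bex2 and Bex1 share 59.9%, 35.5% and 30.0% of their words with other genes, among them each other. The other three are Mbtps2, Tceal5 and Siah1b, at 31%, 28.1% and 22.1%. Of the 55 genes, 34 share under 1% of their words with another gene, among them Sept6, Pcsk1n, Kif4 and Bcorl1.

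The sites behind the main results are shown for 8 genes, each as 21 bases of the GENCODE M21 transcript (mm10) read 5′ to 3′ on the gene's strand. The capital marks the variant position, which is position 11 counted from the 5′ end of the run, and the letter shown is the reference base. The first 5 genes came to read both alleles in some libraries, Rhox5 did so in some and not in others, and Kif4 and Bex4 read mostly the variant throughout.
Alg13: cttcctggtaGccagcatgtt
Sept6: agaagctggaGgataagaaga
Pcsk1n: cccaggcgccGgcacgccgcc
Bcorl1: tcctgaagagGctgaagctct
Pim2: aggaagccccAcccccttgcc
Rhox5: gagtgggagcGgtgggaacag
Kif4: gctgctctccTatccaagaag
Bex4: accccaccatCtggaagaggt
The variants are G11A in Alg13 (chrX:144374040-144374060, plus strand, untranslated), G11A in Sept6 (chrX:36922961-36922981, minus strand, coding) and G11T in Pcsk1n (chrX:7923069-7923089, plus strand, coding). Bcorl1 has G11A (chrX:48405946-48405966, plus strand, coding), Pim2 A11G (chrX:7882478-7882498, plus strand, coding) and Rhox5 G11A (chrX:37805175-37805195, plus strand, coding). Kif4 has T11C (chrX:100726628-100726648, plus strand, coding) and Bex4 C11T (chrX:136139958-136139978, plus strand, coding). At the Sept6 site the reference base took 1.94% of 155 reads in LowK day 56 and 32.3% of 124 reads in MidK1 day 56. At the Bex4 site it took 0 of the reads in LowK day 56 and 3.16% in MidK1 day 56.

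Of the 55 genes, 18 were biallelic in at least 1 reprogrammed library, beside 52.8% of all 231 genes measured in the 3 libraries that chose the members. Biallelic in no library were 37 members, or 67.3%, and 72 of the 176 other genes, or 40.9%. The other genes, here and by library, include the genes left out by name, of which 6 met the rest of the criteria. The part of that choice in the gap was not tested. Of the members, 6 were biallelic in 1 library, 5 in 2 to 4 libraries and 7 in 5 or more, and none was in all 10. The 7 were Alg13 (9 libraries), Bcorl1 (8 of the 9 that measured it), Gm21887, Gpm6b and Pim2 (7 each), Rhox5 (6) and Pin4 (5 of 7). Of the 37, 35 had at least 5 sites, and 17 never reached a median minor share of 5%.

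By library, 2 of 47 members measured were biallelic in LowK day 35, 3 of 52 in LowK day 52 and 5 of 55 in LowK day 56, where 7.63%, 14.8% and 22% of all genes measured were. MidK1 gave 8 of 53, 11 of 52 and 14 of 55 on days 35, 52 and 56, beside 23.4%, 28.2% and 39.5% of all genes. MidK2 gave 6 of 51 on day 18, 4 of 51 on day 22, 10 of 50 on day 29 and 6 of 55 on day 36, beside 11.2%, 34.9%, 31.8% and 17.4%. In 9 of the 10 libraries the members' share lay below that of all genes, and on MidK2 day 18 it was 11.8% against 11.1% for the other genes. The gap was widest on MidK2 day 22, where 7.84% of members and 40.4% of other genes were biallelic, with medians of 4% and 8.80% minor share. Sites of members were covered by a median of 30 to 38 reads by library and sites of other genes by 37 to 41, and the part of depth in this gap was not tested.

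**Figure D1:**
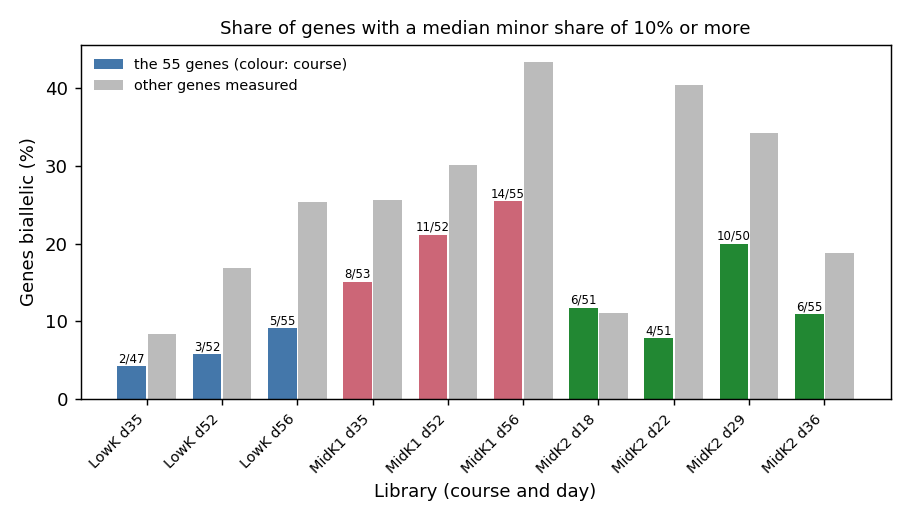
Percentage of genes with a median minor share of at least 10% (vertical axis) in each reprogrammed library (horizontal axis), for the 55 genes in the colour of the course, with counts above the bars, and for the other genes measured in grey. The share of the 55 genes was 4.26% in LowK day 35 and 25.5% in MidK1 day 56, and it lay below the grey bar in 9 of 10 libraries.

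**Figure D2:**
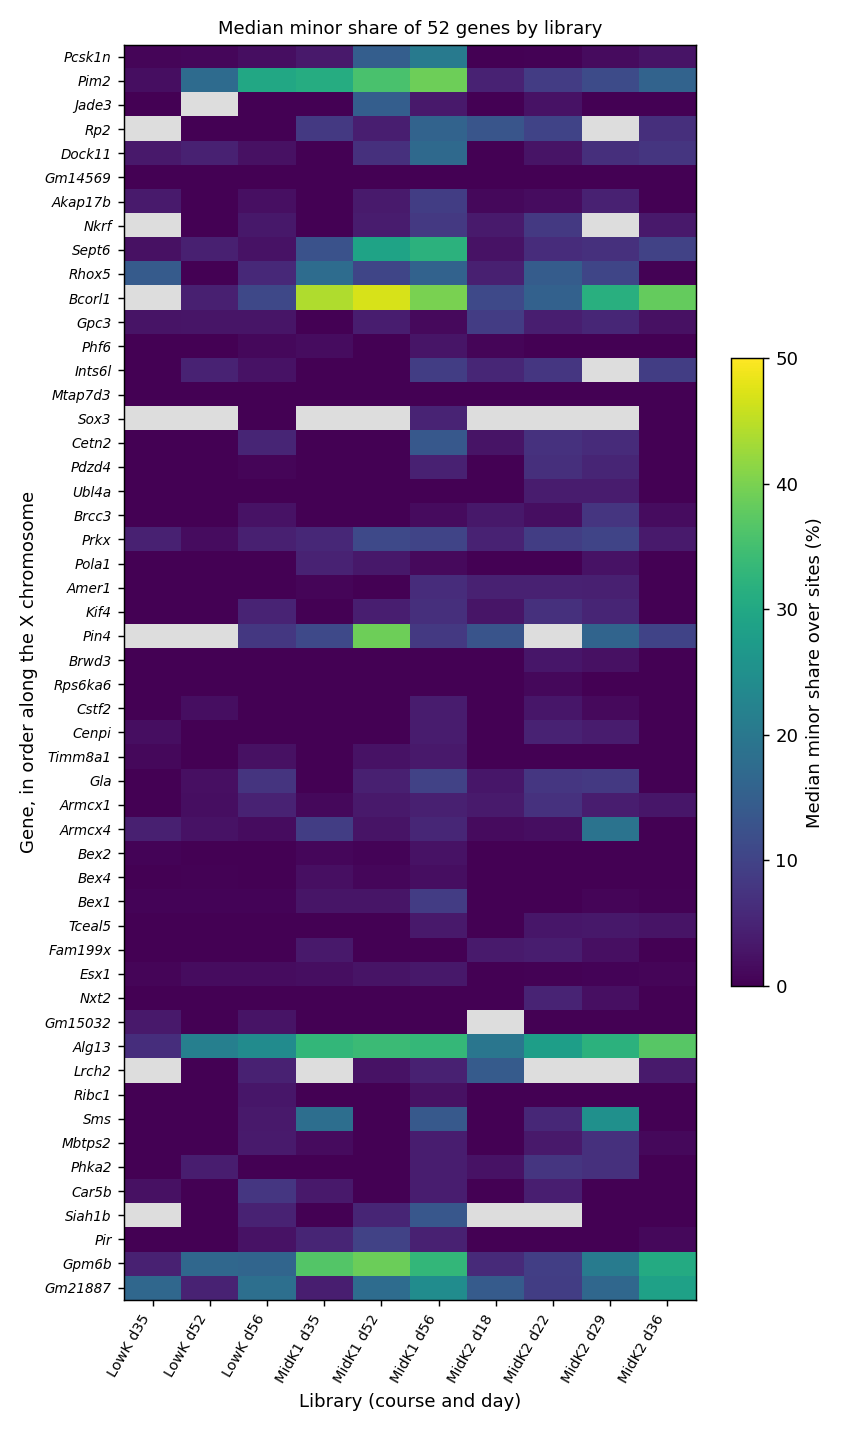
Median minor share in percent (colour, 0 to 50) of 52 of the 55 genes (rows, in order along the X chromosome) in the 10 reprogrammed libraries (columns), with grey where a gene had no site of 20 reads. The rows of Alg13, Bcorl1, Gpm6b and Pim2 are bright in all 3 MidK1 libraries, Sept6 and Pcsk1n in the 2 later ones, and most other rows stay dark.

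Of 4 chromatin and transcription genes among the members, Bcorl1 read both alleles and Brwd3, Phf6 and Jade3 mostly one. Bcorl1 encodes a corepressor related to BCOR, a partner of Polycomb complexes. Its median minor share was 4.35% and 10.8% in LowK days 52 and 56, 44.0%, 46.9% and 39.9% in MidK1 days 35, 52 and 56, and 11.1%, 15.6%, 31.5% and 38.3% in MidK2 days 18, 22, 29 and 36. It had no site of 20 reads in LowK day 35. The MidK1 libraries were all higher than the LowK libraries, and MidK2 day 36 was close to them, although the MidK1 values rest on 2 to 9 sites. Brwd3, which encodes a bromodomain protein, and Phf6, a PHD finger protein, stayed at or below 3.03% and 2.78% in all 10 libraries. Jade3, a subunit of a histone acetyltransferase complex, reached 15.0% in MidK1 day 52 and at most 3.45% elsewhere.

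Of 6 metabolic genes, Alg13 was biallelic in 9 of 10 libraries. It encodes a subunit of the enzyme that adds the second sugar in the assembly of N-linked glycans. At its 32 sites listed in all 10 libraries, the reference share was 9.83% (8.45 to 11.4), 22.5% (20.6 to 24.6) and 23.8% (22.0 to 25.8) in LowK days 35, 52 and 56. In MidK1 it was 33.3%, 32.6% and 33.3% on the same days, and in MidK2 24.8%, 29.6%, 32.6% and 39.6% from day 18 to day 36. LowK day 35 was the lowest library, the 3 MidK1 libraries lay within each other's intervals, and MidK2 day 36 was the highest. Its 32 common sites were uneven, from 0% to 69.7% reference in LowK day 56, and of the 40 sites listed in at least 4 libraries 4 read over 60% reference in every library that listed them.

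Sms, the spermine synthase gene, was at 18.0% median minor share in MidK1 day 35 (2 sites), 13.9% in MidK1 day 56 and 25.0% in MidK2 day 29, and between 0% and 5.51% in the other libraries. Gla, the lysosomal alpha-galactosidase gene, peaked at 9.90% in MidK1 day 56 and was at 0% in MidK2 day 36. Phka2, the liver subunit of phosphorylase kinase, peaked at 7.80% in MidK2 day 22, Car5b, a mitochondrial carbonic anhydrase, at 8% in LowK day 56, and Timm8a1, a mitochondrial import protein, at 3.45%. Car5b stands on the list of genes known in other work to escape X inactivation in some tissues, yet it was biallelic in none of the 10 libraries.

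The following genes of the cytoskeleton and of cell division are on none of the lists used here and are described one by one. Sept6 encodes a septin, a GTP-binding protein of filaments at the cell cortex and the division site. At 13 sites its reference share was 2.10%, 2.88% and 2.35% in LowK, 12.9% (10.3 to 16.0), 29.9% (26.6 to 33.5) and 30.4% (26.4 to 34.7) in MidK1, and 1.33%, 4.56%, 6.35% and 11.7% from day 18 to day 36 in MidK2. The MidK1 libraries were all above the LowK libraries, and MidK2 day 36 was close to MidK1 day 35. The MidK2 day 18 table lists this gene under a date, 6-Sep, and the name was restored here. Kif4, a chromosome-associated kinesin of mitosis, had 18 such sites. Its reference share was 2.46%, 0.985% and 5.61% in LowK, 2.41%, 4.40% and 7.73% in MidK1, and 2.94%, 9.21%, 4.48% and 0.390% in MidK2. No library passed 10%, and MidK2 day 36 was the lowest. Cenpi, a centromere protein, Cetn2, a centrin of centrioles, Pola1, the catalytic subunit of DNA polymerase alpha, and Ribc1 had highest medians of 4.76%, 13.8%, 4.78% and 3.03%. Dock11, an activator of the GTPase Cdc42, reached 17.1% in MidK1 day 56 and no more than 7.69% elsewhere.

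**Figure D3:**
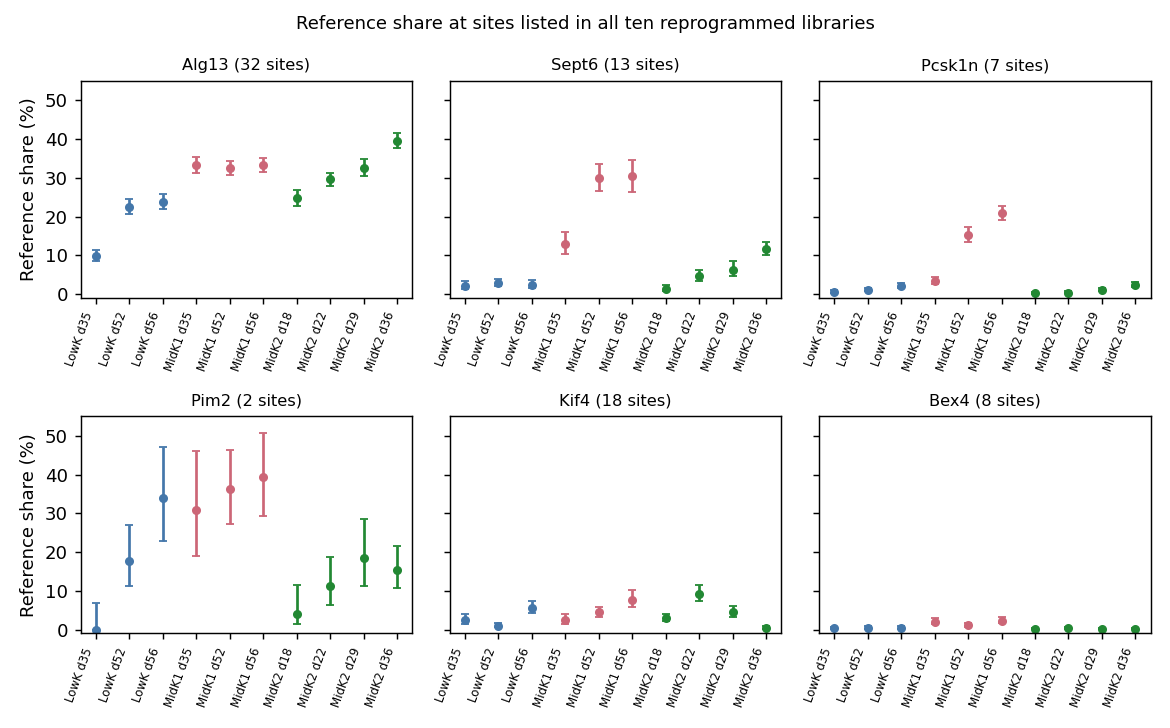
Reference share in percent (vertical axis) summed over sites listed in all 10 reprogrammed libraries, with 95% Wilson intervals for counting error, for 6 genes by library (horizontal axis, blue LowK, red MidK1, green MidK2). Alg13, Sept6, Pcsk1n and Pim2 are higher in MidK1 day 56 than in LowK day 35, whereas Kif4 stays under 10% and Bex4 under 3%.

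**Figure D4:**
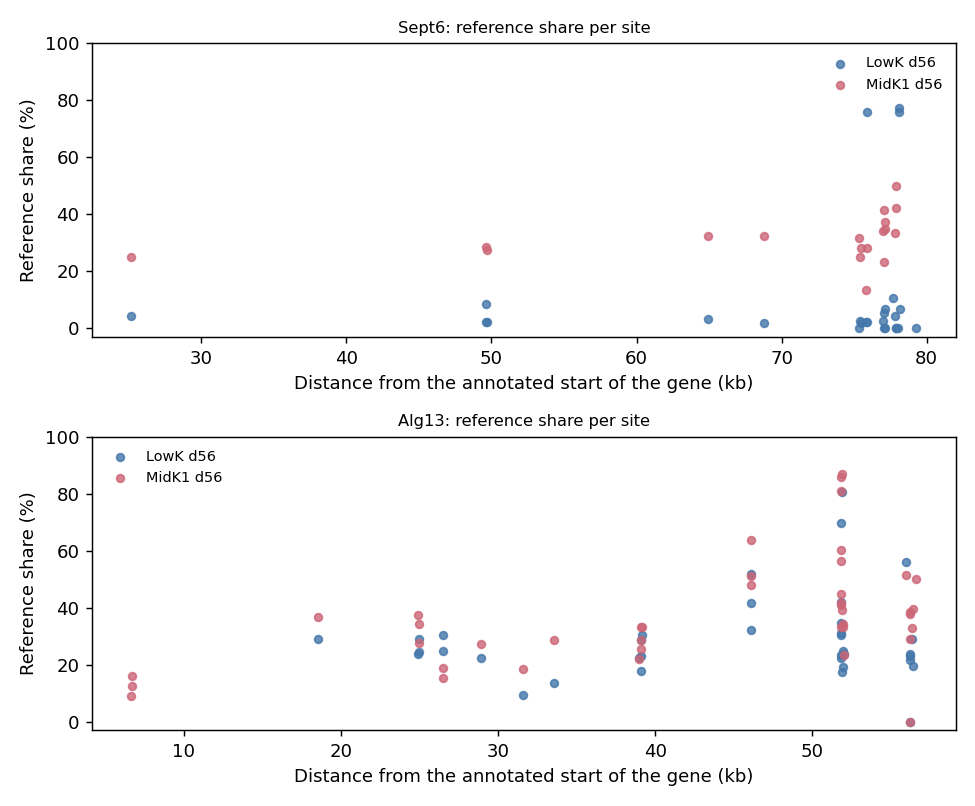
Reference share in percent (vertical axis) of each site of Sept6 and Alg13 against the distance in kilobases from the annotated start of the gene (horizontal axis), in LowK day 56 (blue) and MidK1 day 56 (red). Over the 13 Sept6 sites listed in all 10 libraries, sites ran from 0% to 4.44% in LowK and from 13.5% to 50% in MidK1, along the length of the gene, and the Alg13 sites of the 2 libraries overlap.

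The plot of single sites shows a few Sept6 sites near 77% reference in LowK. Of 34 Sept6 sites listed in at least 4 libraries, 4 read over 60% reference in every library that listed them. Such sites lift a summed share, as in Esx1, where 3 of 16 sites did so and the sum was near 20% in each library while the median minor share was at most 3.20%. Those 20% are sums over sites common to all 10 libraries, so common sites do not remove such positions. Sums over common sites compare the same positions between libraries, and the median minor share is less moved by a few such sites.

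The next genes are known from neurons and endocrine cells, and of them only Gpm6b and Bex1 are on the neuronal list used here. Gpm6b was biallelic in all 3 MidK1 libraries, Pcsk1n in those of days 52 and 56, and Bex1, Bex2 and Bex4 in none. Pcsk1n encodes proSAAS, a secretory granule protein that inhibits a prohormone convertase, and it was the second most deeply covered member. At 7 sites with 1328 to 2812 reads per library its reference share was 0.631%, 1.11% and 2.08% in LowK, 3.48% (2.69 to 4.50), 15.4% (13.5 to 17.4) and 20.8% (19.1 to 22.7) in MidK1, and 0.213%, 0.399%, 1.04% and 2.38% in MidK2. MidK1 days 52 and 56 stood above the other 8 libraries. In MidK1 day 56 the 7 sites ran from 16.5% to 23.5%, so that no single site made the value.

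Gpm6b encodes a membrane proteolipid of neurons and glia. Its median minor share was 4.55%, 16.7% and 16.2% in LowK, 36.5%, 38.7% and 33.2% in MidK1, and 6%, 9.23%, 20.8% and 30.5% in MidK2. All MidK1 libraries were above all LowK libraries, and the 4 MidK2 libraries were ordered by day. Bex4, one of a family of small proteins of brain and embryo, had 8 common sites with 1094 to 2020 reads per library, and its reference share stayed between 0.0558% and 2.27%. Bex1, at 2 sites, ran from 0.201% in MidK2 day 18 to 7.14% (5.25 to 9.65) in MidK1 day 56, and Bex2 had a highest median of 2.51%. The related Tceal5 peaked at 3.51%, Armcx1 at 7.20% and Armcx4 at 19.0%, the last in MidK2 day 29.

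Of 4 signalling and adhesion genes, Pim2 was biallelic by its median minor share in 7 libraries, and Amer1, Gpc3 and Rps6ka6 in none. Pim2 encodes a serine/threonine kinase that promotes survival and growth. At its 2 common sites, with 42 to 175 reads per library, the reference share was 0%, 17.8% (11.2 to 26.9) and 33.9% (22.9 to 47.0) in LowK, 31%, 36.2% and 39.5% (29.2 to 50.7) in MidK1, and 4.11%, 11.1%, 18.4% and 15.4% in MidK2. LowK day 35 and MidK2 day 18 were the lowest libraries, and the interval of LowK day 56 overlapped those of all 3 MidK1 libraries. Gpc3, a heparan sulfate proteoglycan, had 2 common sites with 110 to 700 reads, and its reference share there was at most 1.82%. Its median over all sites peaked at 8.82%. Summed over the 7 sites shared by MidK2 days 18 and 36, however, its reference share was 45.4% and 38.4%. Of its 9 sites listed in at least 4 libraries, 1 read over 60% reference in every library that listed it. Amer1, a regulator of Wnt signalling, and Rps6ka6, a kinase of the RSK family, peaked at 6.35% and 1.04%. Prkx, a kinase related to protein kinase A, rested on 35 sites and was at 10.9% in MidK1 day 52, 10.3% in MidK1 day 56 and 10.2% in MidK2 day 29, just over the limit, and between 1.56% and 9% elsewhere.

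The pluripotency and germline list includes the homeobox gene Rhox5, expressed in embryonic stem cells and germ line support cells. Rhox5 rested on up to 6 sites. Its median minor share was 14.3% (1 site, 21 reads), 0% and 5.81% in LowK, 17.7%, 10.4% and 15.7% in MidK1, and 4.33%, 14.5%, 10.4% and 0.340% in MidK2. LowK and MidK1 overlap through LowK day 35 alone, and MidK2 days 22 and 29 were above days 18 and 36. Over 6 shared sites the reference share was 1.03% in LowK and 8.33% in MidK1 on day 52. On day 56 it was 5.02% and 14.0% (Fisher's exact test, adjusted p = 0.0013 and 0.00147 on the 2 days). The 1 site shared on day 35 gave 14.3% and 21.9% (exact adjusted p = 0.925). The reads over its sites in MidK2 were 314, 546, 760 and 1021 on days 18, 22, 29 and 36. The MidK2 library with the smallest minor share was thus also the deepest there, and the part of depth was not tested. Sox3, a factor of neural progenitors, was measured in the 3 libraries that chose the genes alone and was at 0% to 5%. Esx1, a homeobox gene of placenta and germ line, was covered by 914 to 3218 reads at 14 common sites, and its median minor share was 0.180% to 3.20%.

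Of the RNA genes, Nkrf, a transcriptional repressor that also acts in ribosomal RNA processing, had a highest median of 8.33% and Nxt2, an mRNA export factor, of 5%. Cstf2, a 3′ end cleavage factor, had 8 common sites at 0.998% to 4.09% reference, and Ints6l, related to a subunit of the Integrator complex, peaked at 9.09%. Of the remaining members, Rp2, a GTPase activating protein of cilia, was biallelic in MidK1 day 56 (16.0%), MidK2 day 18 (13.1%) and MidK2 day 22 (10%), on a total of 434 reads. Pin4, a peptidyl-prolyl isomerase, was at 39.0% in MidK1 day 52 and 8.01% to 16.1% in the 6 other libraries that measured it, on 1 or 2 sites each. Siah1b, a ubiquitin ligase, reached 13.5% in MidK1 day 56 and Lrch2 14.3% in MidK2 day 18, on 2 sites each over all libraries. Gm21887, next to the distal end of the chromosome, had medians of 4.17% to 28.6% with no order by course. It shares 62.0% of its words with Gm47283, and whether it is subject to X inactivation was not tested. Its biallelic reads and its calls are therefore not a reading of reactivation by themselves.

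Always under the limit were Akap17b (highest median 8.99%), Brcc3, a deubiquitinase (7.69%), Fam199x (4%), Gm15032, a processed pseudogene (3.41%), Mbtps2, the site-2 protease (6.90%), Pdzd4 (6.82%), Pir (9.94%) and Ubl4a (3.85%). Gm14569 and Mtap7d3 were at a median of 0% in all 10 libraries, the former on 67 sites over all libraries.

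The comparison of MidK1 with LowK on the same day asks how libraries with and without Shield1 differ in allele use. Reads were summed over the sites that both libraries list, and a gene was called where Fisher's exact test, two-sided with Benjamini-Hochberg adjustment over all genes of the pair, gave an adjusted p below 0.05 and the reference share differed by at least 20 points. On day 35, 3 of 46 members tested were higher in MidK1, beside 7.17% of all genes. They were Alg13, at 10.8% in LowK and 34.2% in MidK1 over 34 sites (exact adjusted p = 1.80e-64), Pim2, at 0% and 31% over 2 sites (exact adjusted p = 4.52e-05), and Gpm6b, at 0% and 24.3% at 1 site of 23 and 37 reads (exact adjusted p = 0.0288). On day 52, 4 of 48 were higher, beside 8.58%. Sept6 went from 5.20% to 32.5% over 21 sites (exact adjusted p = 4.54e-75) and Gpm6b from 25.6% to 46.2% over 9 sites (exact adjusted p = 3.80e-06), while Bcorl1 and Gm21887 were called on 1 site each. On day 56, 4 of 54 were higher, beside 9.13%. Sept6 was at 2.49% and 31.2% over 18 sites (exact adjusted p = 3.54e-56), Bcorl1 at 12.8% and 47.9% over 4 sites (exact adjusted p = 1.57e-06), Gm21887 at 30.2% and 52.3% over 11 sites (exact adjusted p = 3.89e-11), and Rp2 at 0% and 28% at 1 site of 27 and 25 reads (exact adjusted p = 0.0113). Of these calls, Alg13 on day 35 ended with sites of at least 50 reads (18.9 points), and Gm21887 on days 52 and 56 with sites of at least 10 reads (14.4 and 19.99 points). With the best covered site alone, Alg13 on day 35 (18.6 points) and Gpm6b on day 52 (6.86 points) fell below the limit of 20 points, while Gpm6b on day 35 (24.3), Gm21887 on day 52 (27.8) and Bcorl1 on day 56 (29.8) stayed above it with exact adjusted p of 0.0655, 0.115 and 0.155. On none of the 3 days was a member called lower, and on each the members' share lay near that of all genes.

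**Figure D5:**
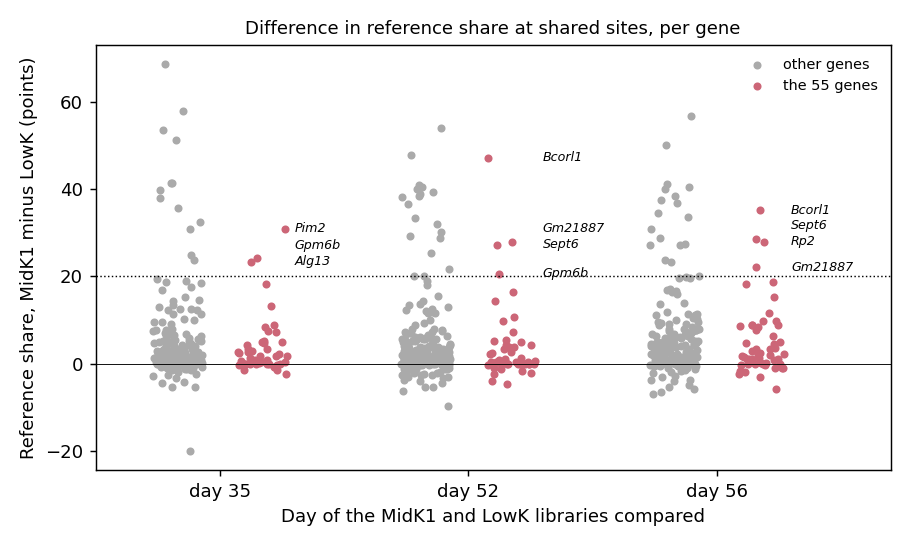
Difference in reference share between MidK1 and LowK in percentage points (vertical axis) for each gene with shared sites on days 35, 52 and 56 (horizontal axis), for the 55 genes in red and other genes in grey, with the limit of 20 points dotted and the called members named. Most members lie near 0, where their median was 1.73, 0.57 and 1.98 points, and the named ones reach from 20.6 to 47.3.

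Some members differed by less than the 20 points asked for. Pcsk1n was 2.85, 14.3 and 18.8 points higher in MidK1 on days 35, 52 and 56 (Fisher's exact test, adjusted p = 9.45e-11, 3.97e-57 and 2.48e-92). Alg13 was 9.69 points higher on day 52 and 9.88 on day 56, after 23.4 on day 35, and Pim2 was 16.3 points higher on day 52 and 8.90 on day 56, where its exact adjusted p was 0.209. Dock11 was 15.2 points higher on day 56 (exact adjusted p = 0.000169) and Prkx 8.32 (exact adjusted p = 1.35e-06). The Bex genes moved by little even where the depth gave small p-values, with Bex4 1.90 points higher on day 56 (exact adjusted p = 0.00026). The median difference over all genes was 2.08, 2.04 and 3.11 points on the 3 days.

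Taking the days together, 12 of 44 members measured in all 6 libraries had a higher median minor share in every MidK1 library than in every LowK library, beside 27.6% of all genes, and no member had the reverse. The 12 were Alg13, Bex1, Bex2, Bex4, Esx1, Gpm6b, Pcsk1n, Pim2, Pir, Pola1, Prkx and Sept6. Their separation varied from Gpm6b, at most 16.7% in LowK and at least 33.2% in MidK1, to Bex2, at most 0.397% and at least 0.426%. Days of one course are not replicates, and an exact permutation test of 3 against 3 libraries could not go below p = 0.10.

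Lists of genes by role put the called members beside other genes of the same role, whatever their coverage in fibroblasts. Of 40 chromatin and transcription genes listed, 22 were tested on each day and 1 was higher, Hdac6 on day 35 and Bcorl1 on days 52 and 56, with median differences of 1.10, 1.55 and 3.35 points. Of 49 metabolic genes, 33, 35 and 33 were tested and 2, 0 and 1 were higher, Alg13 with Fundc1 on day 35 and Fundc1 on day 56. Of 38 signalling and adhesion genes, 15, 16 and 15 were tested, and Pim2 on day 35 was the only one called. Of 17 neuronal genes, 3, 3 and 4 were tested, and Gpm6b was called on days 35 and 52.

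Within the courses, few members changed by 20 points between libraries. In LowK, Pim2 rose from 2.83% on day 35 to 26.6% on day 56 over 4 sites (Fisher's exact test, adjusted p = 3.08e-06), the only one called of 47 members, beside 2.13% of all genes. At its best covered site alone Pim2 was 6.01 points higher, and the call ended (exact adjusted p = 1). Alg13 was 13.2 points higher on LowK day 56 than on day 35 (exact adjusted p = 2.16e-22). In MidK1, Gm21887 rose from 21.2% on day 35 to 47.8% on day 56 over 7 sites (exact adjusted p = 3.63e-11), the only one called of 50, beside 3.54% of all genes. With sites of at least 50 reads, which left 1 site, the Gm21887 difference was 12.1 points and the call ended (exact adjusted p = 0.106). Over the same days Pcsk1n was 17.4 points higher (exact adjusted p = 8.14e-57), Sept6 17.5 points higher (exact adjusted p = 1.93e-10) while Alg13 was at 33.3% on both days over its 32 common sites.

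In MidK2 no member was called between days 18 and 22 (0 of 47, beside 1.83% of all genes), days 22 and 29 (0 of 46, beside 0.375%) or days 29 and 36 (0 of 48, beside 0.364%), and none between MidK1 day 35 and MidK2 day 36 (0 of 50, beside 1.28%). By Fisher's exact test without adjustment, p was under 0.05 in either direction for 16, 9, 19 and 16 members, beside 49.8%, 23.6%, 44.7% and 42.1% of all genes. From day 18 to day 36, a pair added after the neighbouring days had been seen, 2 of 50 were higher, beside 5.4% of all genes. They were Bcorl1, from 19.6% to 46.2% over 9 sites (exact adjusted p = 1.01e-10), and Gpm6b, from 5.68% to 31.4% over 3 sites (exact adjusted p = 1.94e-14). Over the same days Alg13 was 13.3 points higher (exact adjusted p = 3.34e-20), Pim2 12.7 (exact adjusted p = 3.52e-05) and Sept6 8.15 (exact adjusted p = 1.12e-12).

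Between days 29 and 36 of MidK2 some members were higher and others lower, by amounts under 20 points. With an adjusted p below 0.05 and a difference of any size, 4 of 48 members tested were higher on day 36, beside 5.09% of all genes. Lower were 12 of the 48, beside 36% of all genes, so in both sets more genes were lower than higher. The 4 were Bcorl1 (11.9 points), Gpm6b (10.5), Alg13 (5.30) and Sept6 (3.49). The 12 were Akap17b, Armcx4, Cstf2, Gla, Jade3, Kif4, Pdzd4, Phka2, Prkx, Rhox5, Sms and Ubl4a. Rhox5 was at 9.08% on day 29 and 0.686% on day 36 over 6 sites (exact adjusted p = 1.29e-17), Kif4 at 4.86% and 0.610% over 27 sites (exact adjusted p = 8.11e-14), Sms at 15.7% and 0.495% over 7 sites (exact adjusted p = 1.56e-08) and Gla at 9.92% and 0.386% over 5 sites (exact adjusted p = 3.68e-05). Day 36 had the highest summed coverage of the course, 254398 reads against 186588 on day 29, and the part of depth was not tested.

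The direction was the other way between days 18 and 22. There 12 of 47 members tested were higher by any amount, beside 41.4% of all genes, and 2 were lower, beside 1.1%. Rhox5 was 9.96 points higher (exact adjusted p = 1.09e-05), Gla 6.57 (exact adjusted p = 0.00544), Sms 5.82 (exact adjusted p = 0.0446) and Kif4 5.55 (exact adjusted p = 4.99e-10), while Sept6 was 3.21 and Alg13 3.25 points higher. Between MidK1 day 35 and MidK2 day 36, which are 1 day apart in courses with the same agent, Bcorl1 was at 50.4% and 48.7% (exact adjusted p = 0.905), Gpm6b at 34.9% and 32.9% (exact adjusted p = 0.836), and Rhox5 at 16.3% and 0.284% (16.0 points, exact adjusted p = 2.51e-12).

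The members lie along the whole X chromosome, with starts between 7.9 Mb and 170 Mb. The 4 members in the first 30 Mb, Pcsk1n, Pim2, Jade3 and Rp2, were each biallelic in at least 1 library, as were 14 of the 51 beyond. Among the 176 other genes measured in the 3 libraries that chose the members, 32 of 38 in the first 30 Mb (84.2%) and 72 of 138 beyond (52.2%) were. In MidK1 day 56 the figures were 3 of 4 and 11 of 51, and among the other genes 35 of 46 in the first 30 Mb (76.1%) and 51 of 152 beyond (33.6%). Neighbours could differ. Nkrf, which lies 8.4 kb from Sept6, had a minor share of 8.33% in MidK1 day 56, at 1 site only. Sept6 had a median of 32.0% there over 18 sites. Pim2 and Pcsk1n lie 36.4 kb apart, and in LowK day 56 they were at 30.0% and 1.82%.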

How the data were processed

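The deposited tables, 1 per library, list variants on the X chromosome with counts of variant reads, counts of covering reads and the variant frequency in percent. Per the labels, poly(A) RNA was made into directional libraries from 500 ng of total RNA, and per the series' design text 76-base paired reads went through variant calling in CLC Genomics Workbench (its Basic Variant Call tool). The submitters' processing notes name the build mm10. For the aligner, the caller's settings and the use of strand, the answer is not given in the sources used here. The deposited values are counts without normalization, and the lowest listed was 5 variant reads and 10% in 7 tables (MEF 1, LowK, MidK1), and 2 reads and 5% in 5 tables (MEF 2, MidK2), at a lowest coverage of 10.

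Single-base variants of at least 20 reads with 1 gene name were kept, and 69 second alleles at a position were dropped. Shares, Wilson intervals (95%) and Fisher tests used scipy 1.17.1, with pandas 2.3.3 on Python 3.11.15. Tests used deposited counts on sites listed in both libraries, over all genes, for 9 pairs and 1 added. The pair test was checked on simulated counts with binomial noise. It called 40 of 40 genes raised by up to 40 points and 0 of 190 unchanged genes. Changes near the limit of 20 points and reads shared between sites were not simulated. Alternatives were coverage of 10 or 50 reads, other limits, summed reads, single sites and common sites. The genes named are those called in a pair with at least 2 shared sites, the 12 most covered, those on the pluripotency and germline list and those never biallelic with at least 5 sites, and the values of 3 members are not reported here singly, although they enter the counts. Annotation and sequences are from GENCODE M21. The members and lists were chosen with earlier results of these data known.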

Additional observations from a re-analysis of the deposited data

Results flagged for a closer look

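Within these 55 genes, the odds ratio between MidK1 and LowK differed between days for 6 genes, by Zelen's exact test of equal odds ratios. It used sites listed in all 4 libraries of the 2 days, with Benjamini-Hochberg adjustment over 205 genes for day 52 and 212 for day 56. The test was added after the data were seen, and 17 and 20 genes passed it in all. On simulated counts with binomial noise it passed 24 of 40 genes given a larger difference on day 56, and 1 of 172 unchanged genes. A gene that did not pass is therefore not shown to be unchanged. Alg13 changed from day 35 to day 52 by -13.8 points (exact adjusted p = 1.12e-15) and to day 56 by -14.0 points (exact adjusted p = 5.05e-18). Its LowK share went from 9.83% to 23.8% between days 35 and 56 while its MidK1 share was 33.3% on both. Pim2 changed by -25.4 points to day 56 (exact adjusted p = 0.00984), with LowK at 0% and 33.9% and MidK1 at 31% and 39.5% over 2 sites, and by -12.6 points to day 52 (exact adjusted p = 0.0761). The difference was larger by 21.5 points on day 56 for Gm21887 (exact adjusted p = 0.0256), which shares much of its transcript sequence with another gene, and by 23.7 on day 52 at 1 site (exact adjusted p = 1). For Akap17b the difference went from -2.42 points on day 35 to 7.83 on day 56, a change of 10.2 (exact adjusted p = 0.000605), and its change to day 52 was 5.54 (exact adjusted p = 0.0899). For Cenpi it went from -1.42 to 4.89 points on day 56, a change of 6.31 (exact adjusted p = 0.0312), with a change of 0.908 to day 52 (exact adjusted p = 1). For Kif4 it went from -0.0938 to 3.96 points on day 52, a change of 4.06 (exact adjusted p = 0.0132), with a change of 2.16 to day 56 (exact adjusted p = 0.936). For Sept6 the difference was 17.3 points larger on day 56, and the exact test of odds ratios gave an adjusted p of 0.134. That p does not show that its difference in points was unchanged.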

How the results depend on the processing

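The number of members was 27 when any listed variant in MEF excluded a gene, and 59 to 75 when either MEF library was left out. With a biallelic limit of 20%, the counts of biallelic members fell to 0, 1 and 2 in LowK, 4, 6 and 7 in MidK1, and 0, 1 and 4 on MidK2 days 18, 22 and 29. With 50 reads per site they were 1 on LowK days 35 and 56, 3, 5 and 6 in MidK1, and 2 and 4 on MidK2 days 18 and 29. With 10 reads they were 0 on LowK day 35 and 2 on MidK2 day 18, and with sites common to all 10 libraries 1 and 3. Summed reads in place of medians gave 5, 5 and 9 in LowK and 31, 29, 30 and 25 in MidK2, and the cause was not tested. The MidK2 tables list variants down to 5%, those of the other courses down to 10%. For MidK1 against LowK, members called higher were 0, 1 and 2 on days 35, 52 and 56 with 50 reads per site, 1 and 2 on days 35 and 52 with the best covered site alone, and 5, 7 and 7 at 10 points. LowK day 56 against day 35 gave 0 with 50 reads, 0 with the best covered site and 2 at 10 points, and MidK1 day 56 against day 35 gave 2 with the best covered site and 4 at 10 points. At 10 points, MidK2 gave 2 for day 29 against 22, 5 for day 36 against 29 and 4 for day 36 against 18, and 1 against MidK1 day 35. The best covered site gave 1 for MidK2 day 36 against 29 and 1 against MidK1 day 35, sites at 10% to 90% gave 3 for day 36 against 29, and 50 reads gave 1 for day 36 against 18. Alg13 on day 35 was 18.9 points with 50 reads and 18.6 at its best covered site, and Gm21887 lost its calls with 10 reads (14.4 and 19.99 points on days 52 and 56). For the named genes 71 of the values under the alternatives stayed called, 10 lost the call, by size or by adjusted p, and 0 turned direction. The 71 are no measure of stability, since some could not change. A limit of 10 points cannot end a call made at 20 points. Limits of 5 variant reads and 10% already hold in the LowK and MidK1 tables. Calls left without a site, as with 50 reads, were not counted as lost. Where a value moved, the cause was not tested beyond the smaller number of sites and reads. No paired analysis was possible because the reprogrammed groups hold 1 library each and share no replicate pairs. LowK and MidK1 are compared day by day, and an exact two-sided test over their 3 matched days could not go below p = 0.25.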
